A study of Mus musculus with 2 samples.

Results

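Long non-coding RNA (lncRNA) genes were examined in regulatory T cells (Treg cells, suppressive CD4 T cells whose identity rests on Foxp3, a transcription factor) from the mouse colon. Members were the autosomal genes with the biotype lincRNA or antisense in the deposited annotation and at least 20 reads over both libraries. Of 7695 such genes on autosomes, 750 met this minimum, while 1747 had 1 to 19 reads and 5198 had 0 reads in both libraries. The members comprised 376 lincRNA genes of 4915, a class annotated as intergenic although 62 of these members share exon bases with coding exons, and 374 antisense genes of 2780. Of these antisense members 342 overlap their nearest coding gene on the opposite strand, 9 on the same strand and 23 do not overlap it. They were chosen by their read counts, so the counts that passed them are a description.

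RNA from Treg cells of the colon lamina propria, the tissue layer beneath the gut epithelium, was sequenced from female mice of 2 genotypes with 1 library each. The first genotype was wild type (WT), and the second, Exon2KO, carries a Foxp3 allele without exon 2, which the series title writes as Foxp3∆2. The study asked what the loss of this exon does to gene expression in colonic Treg cells. Age, strain background, the sorting scheme and whether a library came from 1 mouse or from pooled mice are not given in the sources used here. Neither genotype had a replicate, the spread between mice is therefore unknown for every value below, and intervals cover counting error only.

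Depth was 16281133 reads assigned to genes in WT and 15412425 in Exon2KO, and a gene with 0 reads may still hold up to 1.84e-05% and 1.95e-05% of them (3 reads). Exon2KO held 20946 Foxp3 reads against 6991 in WT (log2 ratio 1.56, 95% counting interval 1.52 to 1.60), a gene-level count that cannot check the loss of an exon. All 10 T cell identity genes had reads, and their summed level was 6685 CPM (scaled counts per 1e6 reads) in WT and 5095 in Exon2KO, with a median log2 ratio of -0.21 and Cd5 (-1.05) as the 1 gene past 2-fold. Most colon epithelial markers were higher in Exon2KO: 12 of 16 were at least 2-fold higher, and Fabp2 had 0 reads in WT. Epcam (782 and 609 reads, -0.39, -0.54 to -0.23), Muc2 (41 and 21, -0.93) and Tff3 (13 and 10, -0.34) were lower, Tff3 with an interval that spanned 0. The summed level of the list was 100 CPM in WT and 512 in Exon2KO, of which Epcam held 49.8 and 38.1. B and plasma cell genes summed to 8671 and 8176 CPM, myeloid genes to 50.6 and 57.6, stromal and endothelial genes to 80.5 and 76.4, and CD8 and NK cell genes to 3199 and 4057. Gzmb made up most of the last sum: without it the CD8 and NK genes summed to 427 and 75.3 CPM, and the list's median log2 ratio was -0.60. Past 2-fold were 0 higher and 1 lower of 10 T cell identity genes, 2 and 3 of 8 Treg genes, 1 and 2 of 9 B and plasma, 0 and 1 of 7 myeloid, 1 and 0 of 7 stromal and endothelial, and 0 and 3 of 8 CD8 and NK genes with 20 or more reads, beside 7.4% higher and 6.89% lower of all loci. The part of these other cells in the lncRNA differences was not tested, and in bulk RNA fewer cells of a type and less RNA per cell cannot be told apart.

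An lncRNA is transcribed, and often spliced and polyadenylated, like a messenger RNA but is annotated without a protein product. Some act as RNA in the nucleus, some are precursors that are cut into microRNAs (miRNAs) or small nucleolar RNAs, and for others transcription through the locus affects a neighbouring gene. In T cells, many lncRNA genes lie beside genes for cytokines, transcription factors and surface receptors and are switched on in a subset-specific way.

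The products of the miRNA host genes among the members are known as sequences, and they are shown because the host transcript stands in the data for the miRNAs cut from it. Each is the RefSeq mature sequence (GRCm38.p6), 5′ to 3′, with the seed, bases 2 to 8, in capitals.
mmu-miR-155-5p: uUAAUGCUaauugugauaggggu
mmu-miR-142a-5p: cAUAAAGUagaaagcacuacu
mmu-miR-142a-3p: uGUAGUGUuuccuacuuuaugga
mmu-miR-17-5p: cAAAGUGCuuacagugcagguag
mmu-miR-20a-5p: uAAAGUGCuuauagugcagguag
mmu-miR-19a-3p: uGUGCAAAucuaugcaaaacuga
mmu-miR-19b-3p: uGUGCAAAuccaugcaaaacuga
mmu-miR-92a-3p: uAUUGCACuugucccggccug
The first comes from Mir155hg at chr16:84714143-84714165, the next pair from Mir142hg on chromosome 11, and the other five from Mir17hg on chromosome 14, all on the plus strand inside the deposited body of the host. miR-17-5p and miR-20a-5p share the seed AAAGUGC, and miR-19a-3p and miR-19b-3p share GUGCAAA. No mature miRNA was measured here, since the counts are of the host transcripts.

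Promoters of 4 members on which the results turn are shown next. The members are the pair with the most reads, the lincRNA with the steepest drop among members with 200 or more reads, and the imprinted RNA that rose past 2-fold. The promoter windows run from 250 bases before to 50 after the RefSeq start (GRCm38.p6), on the strand of the gene. Capitals mark a match on either strand to the TATA box TATAAA or the GC box GGGCGG. The forkhead core TGTTTAC, the letters recognised by forkhead factors such as Foxp3, was searched as well. None of the 3 strings contains another.
Malat1: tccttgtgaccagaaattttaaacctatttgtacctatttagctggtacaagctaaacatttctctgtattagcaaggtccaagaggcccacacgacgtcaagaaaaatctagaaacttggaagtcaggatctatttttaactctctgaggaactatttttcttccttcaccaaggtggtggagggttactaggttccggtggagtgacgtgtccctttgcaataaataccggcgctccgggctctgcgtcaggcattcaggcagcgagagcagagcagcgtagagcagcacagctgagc
AW112010: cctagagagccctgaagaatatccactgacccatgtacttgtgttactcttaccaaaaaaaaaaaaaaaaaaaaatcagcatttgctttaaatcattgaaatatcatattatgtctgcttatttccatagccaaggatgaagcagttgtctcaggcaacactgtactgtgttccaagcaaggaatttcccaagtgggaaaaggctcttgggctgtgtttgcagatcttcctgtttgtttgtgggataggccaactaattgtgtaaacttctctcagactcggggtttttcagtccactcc
6330403K07Rik: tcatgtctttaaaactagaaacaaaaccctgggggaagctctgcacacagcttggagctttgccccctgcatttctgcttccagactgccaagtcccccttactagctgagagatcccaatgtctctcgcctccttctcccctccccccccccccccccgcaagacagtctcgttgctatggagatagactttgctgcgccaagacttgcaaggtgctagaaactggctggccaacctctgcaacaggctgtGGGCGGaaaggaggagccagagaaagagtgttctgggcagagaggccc
Airn: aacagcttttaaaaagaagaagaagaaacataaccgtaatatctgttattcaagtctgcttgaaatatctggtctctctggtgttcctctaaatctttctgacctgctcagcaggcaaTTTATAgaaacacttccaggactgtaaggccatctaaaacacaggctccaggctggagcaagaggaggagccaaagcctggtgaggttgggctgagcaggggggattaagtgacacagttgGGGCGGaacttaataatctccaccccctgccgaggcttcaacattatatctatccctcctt
These windows are at chr19:5802623-5802922, chr19:11050517-11050816, chr11:71033568-71033867 and chr17:12741061-12741360. Airn held 1 TATA box and 1 GC box, 6330403K07Rik held 1 GC box, and the windows of Malat1 and AW112010 held none of the 3 motifs. GC content was 47% for Malat1, 40% for AW112010, 56.3% for 6330403K07Rik and 45.7% for Airn, and Malat1 had 10 CpG dinucleotides against 1 for AW112010. Over all 32851 RefSeq promoters of this length, 35.7% held the GC box, 13.6% the TATA box and 3.65% the forkhead core. A RefSeq promoter was matched by symbol for 317 of the 750 members, and for 195 its start lay within 100 bases of the deposited start (the window printed for 6330403K07Rik starts from a site 104 bases away from it). The 400 RefSeq promoters under the 317 symbols, some genes having several, held the same letters in 32.5%, 9% and 3% of cases. A match describes the letters in the window and is no evidence that a factor binds there.

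Members were thinly covered. Their median was 54 reads over both libraries, from 20 to 94229, against 589 for the 11854 protein-coding genes that reached the same minimum. Corrected for length, the median level was 1.21 FPKM (fragments scaled by the length of a gene and by depth) in WT and 1.23 in Exon2KO, against 3.87 and 3.86 for coding genes. Together the members took 0.835% of the WT reads (95% Wilson score interval 0.831 to 0.840) and 1.08% of the Exon2KO reads (1.08 to 1.09). Malat1 alone took 0.208% and 0.391%. Without Malat1 the shares were 0.627% and 0.691%. Reads were concentrated in few genes, with 31.1% of all member reads in Malat1, 46.5% in the top 2 and 65.4% in the top 10. In contrast, 347 members had 20 to 49 reads and only 29 reached 1000.

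Malat1, the nuclear RNA associated with splicing speckles, had 33917 reads in WT and 60312 in Exon2KO. Its scaled level was 2161 CPM in WT and 3772 CPM in Exon2KO, a log2 ratio of 0.80 (0.78 to 0.82), below the 2-fold mark used for a call. The gene is a single exon block at chr19:5795690-5802672 on GRCm38. Neat1, the RNA scaffold of paraspeckles, lies at chr19:5824708-5845478 beside it and had 2497 and 2563 reads (log2 ratio 0.01, -0.07 to 0.09). The level of Malat1 was therefore higher in Exon2KO and that of its neighbour differed by less than the counting error.

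AW112010, a lincRNA known to be induced by interferon and inflammatory signals in lymphocytes and macrophages, had the highest level per length of any member, at 1902 FPKM in WT and 1917 in Exon2KO. Its reads were 23096 and 23485 and its log2 ratio was -0.00 (-0.03 to 0.02), with a sign that flipped under other library scalings. Gm26740 had 8270 and 7810 reads (-0.11, -0.15 to -0.06). Gm19585, at chr17:51986415-52163976 with Satb1 as its nearest coding gene 153.1 kb away, had 7058 reads in WT and 4611 in Exon2KO (-0.64, -0.70 to -0.59). AU020206 had 3484 and 6212 reads (0.81, 0.75 to 0.87), and Gm26917, which ends just before the RefSeq ribosomal RNA pseudogene Rn18s-rs5, had 2486 and 3076 (0.28, 0.20 to 0.36). None of these 6 members with the most reads, Malat1 included, passed 2-fold. Of the 29 members with 1000 or more reads, Gm44851 passed it upward and Gm26809 downward.

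**Figure D1:**
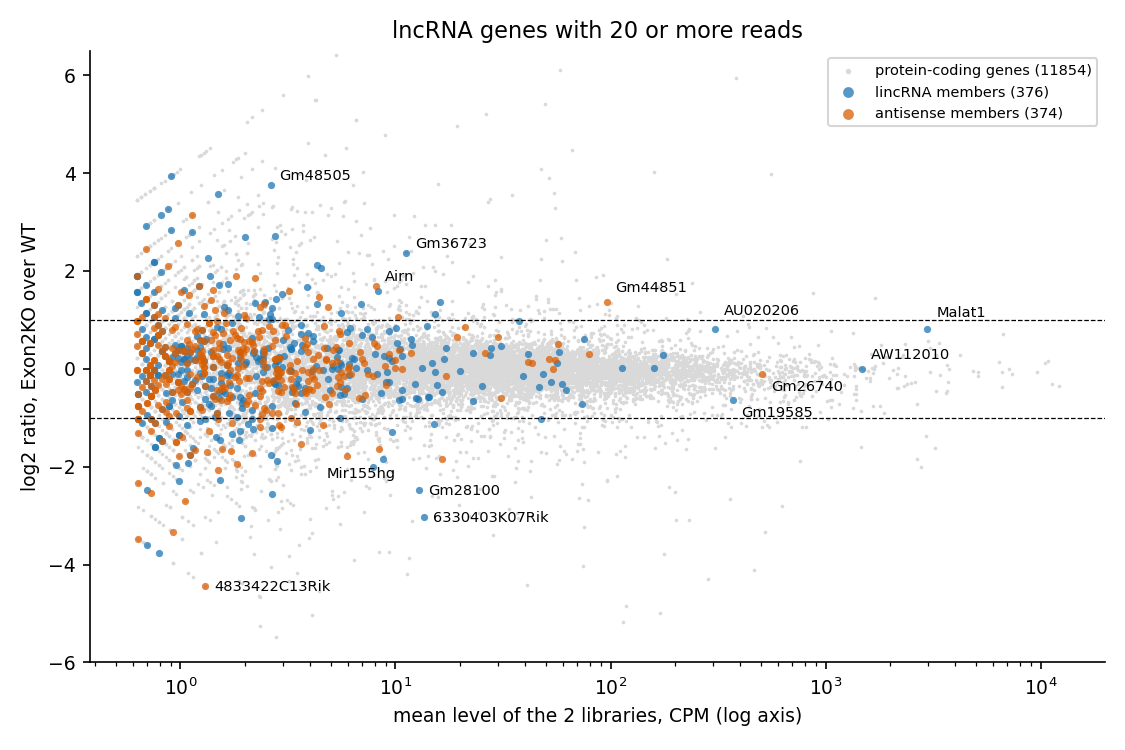
The x axis is the mean level of each gene over the 2 libraries in CPM (log axis) and the y axis the log2 ratio of Exon2KO over WT. Each point is 1 gene, with lincRNA members in blue, antisense members in orange and protein-coding genes in grey, and dashed lines mark 2-fold; coding genes beyond the ends of the y axis, such as Gsdmc4, are not drawn. The members gather at low levels, where ratios fan out with few reads, and Malat1 and AW112010 stand at the far right between the lines.

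Of the 750 members, 92 (12.3%) were at least 2-fold higher in Exon2KO and 86 (11.5%) at least 2-fold lower. Over all 15260 loci with 20 or more reads the shares were 7.4% higher and 6.89% lower, and over protein-coding genes 5.91% and 6.21%. When a member was counted only if its whole 95% counting interval lay past 2-fold, 28 were higher (3.73%) and 24 lower (3.2%), against 3.09% and 3.2% of all loci, shares near the background. The median log2 ratio was 0.04 (quartiles -0.47 and 0.52), beside -0.00 over all loci and -0.02 over coding genes. Across the 750 genes the levels per library had a Spearman correlation of 0.740, a description over genes measured in the same pair of libraries. The authors' deposited table gave an adjusted p-value under 0.05 to 51 members (6.8%, against 5.87% of all loci), 27 higher and 24 lower, and all 51 passed 2-fold here. That p-value compares 1 library with 1 library and measures no spread between mice.

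Split by depth, members and coding genes had different shares past 2-fold. With 20 to 49 reads, 30% of 347 members and 39.6% of 1252 coding genes passed. From 50 to under 200 reads the shares were 19.7% of 289 and 21.4% of 2200. From 200 to under 1000 reads the order was the other way, at 17.6% of 85 members against 7.12% of 3906 coding genes. At 1000 or more reads the shares were 6.9% of 29 and 4.27% of 4496. Under the stricter interval rule the band from 200 to under 1000 reads held 11.8% of members and 4.12% of coding genes, and the band of 20 to 49 reads 7.78% and 13.2%. Of the 2 biotypes, 27.7% of the lincRNA genes passed 2-fold (58 higher, 46 lower) and 19.8% of the antisense genes (34 higher, 40 lower). The share over all loci was 14.3%. Under the interval rule the shares were 8.78% and 5.08%, against 6.3% of all loci.

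**Figure D2:**
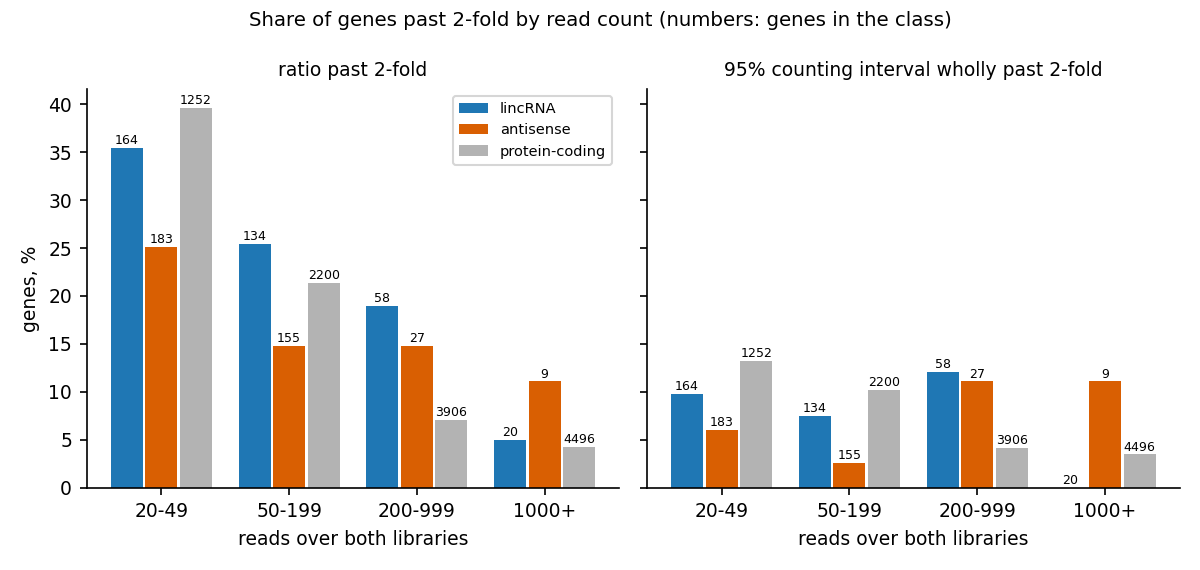
Bars give the percentage of genes past 2-fold in either direction (y axis) by reads over both libraries (x axis), for lincRNA members, antisense members and protein-coding genes, with the number of genes above each bar. On the left the ratio itself is past 2-fold, and on the right its whole 95% counting interval is. Coding genes lead both classes of members at 20 to 49 reads, and both classes lead coding genes from 200 to under 1000 reads.

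The 24 members with exactly 20 reads had log2 ratios from -3.47 to 1.91, with 11 past 2-fold. The 28 genes of the class with 19 reads, left out, ranged from -2.27 to 2.72, with 8 past 2-fold. Of all 750 members, 140 had under 10 reads in 1 of the libraries, and 15 had 3 or fewer in WT and 9 in Exon2KO. Among the 610 members with at least 10 reads in both libraries, 86 passed 2-fold. Of all loci with 20 or more reads, without this further minimum, 14.3% passed.

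Of the miRNA hosts, Mir155hg, the host of miR-155, which is needed for the fitness of Treg cells, had 215 reads in WT and 60 in Exon2KO. This is a log2 ratio of -1.83 (-2.31 to -1.45), past 2-fold with its whole interval. The deposited gene spans chr16:84703167-84715245 in 3 exon blocks, and its nearest coding gene, Mrpl39, had 797 and 865 reads (0.09). Mir142hg, host of the miR-142 pair that is expressed throughout the blood lineage, had 847 and 938 reads (0.12, -0.02 to 0.26). Mir17hg, host of the miR-17 to miR-92a cluster, which promotes lymphocyte proliferation, had 82 and 72 reads (-0.21, -0.69 to 0.26). Of these 3 hosts, 0 rose past 2-fold and 1 fell, against 7.4% and 6.89% of all loci. Mirt1, which is on the list of hosts by its name but is known as a transcript of heart injury, had 269 and 183 reads (-0.58, -0.86 to -0.31).

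The snoRNA hosts carry small nucleolar RNAs in their introns, which guide the modification of ribosomal RNA, and none of their 5 members passed 2-fold, against 14.3% of all loci in either direction. Snhg12 had 386 and 482 reads (0.29), Snhg6 155 and 222 (0.49), Snhg20 214 and 176 (-0.31) and Snhg10 28 and 31 (0.11). Epb41l4aos had 74 and 99 (0.38). Their median log2 ratio was 0.29, beside -0.00 over all loci.

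Among the imprinted RNAs, which are transcribed from 1 parental allele, 2 were members. Airn, which silences Igf2r and its neighbours on the paternal chromosome in cis in other tissues, had 59 reads in WT and 200 in Exon2KO (1.70, 1.31 to 2.18). It lies at chr17:12741311-12860136, antisense to Igf2r, whose reads were 437 and 543 (0.29, 0.10 to 0.47). Inside the body of Airn, on the other strand, CT030636.1 had 26 and 56 reads (1.03, 0.38 to 1.81) and CT030636.2 had 4 and 18 (1.72, 0.54 to 4.17). All 3 were thus at least 2-fold higher in Exon2KO, beside 7.4% of all loci, while Igf2r stayed within 2-fold. The intervals of CT030636.1 and CT030636.2 reached below 2-fold. Because the use of strand in the counting is not given, reads of such overlapping genes cannot be told apart. Kcnq1ot1, the imprinted antisense RNA of the Kcnq1 locus, had 736 and 1069 reads (0.51, 0.37 to 0.65).

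Of the lncRNAs listed for their known roles in immune cells, 7 were members, with 1 higher and 1 lower, against 7.4% and 6.89% of all loci. Lncpint had 929 and 1448 reads (0.61, 0.49 to 0.73) and Tug1 364 and 463 (0.32, 0.12 to 0.52). Gm14005, the mouse Morrbid locus, which restrains the death gene Bcl2l11 in short-lived myeloid cells, had 302 and 220 reads (-0.48, -0.74 to -0.23), and Bcl2l11 itself 1085 and 715 (-0.63). Pvt1, downstream of the growth regulator Myc, had 204 and 135 reads (-0.61, -0.95 to -0.30), beside 1631 and 460 for Myc (-1.85). Bach2os, antisense to the transcription factor gene Bach2, had 3 reads in WT and 28 in Exon2KO, with the limit of its log2 ratio nearer 0 at 1.501, and Bach2 had 173 and 253 (0.52). Bach2os shares 24.6% of its exon bases with coding exons. Gm2044 had 23 and 8 reads (-1.34, -2.92 to -0.34), and Gm28875 had 52 and 51. Outside this list, Miat, a nuclear RNA, had 140 and 371 reads (1.37, 1.09 to 1.67).

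**Figure D3:**
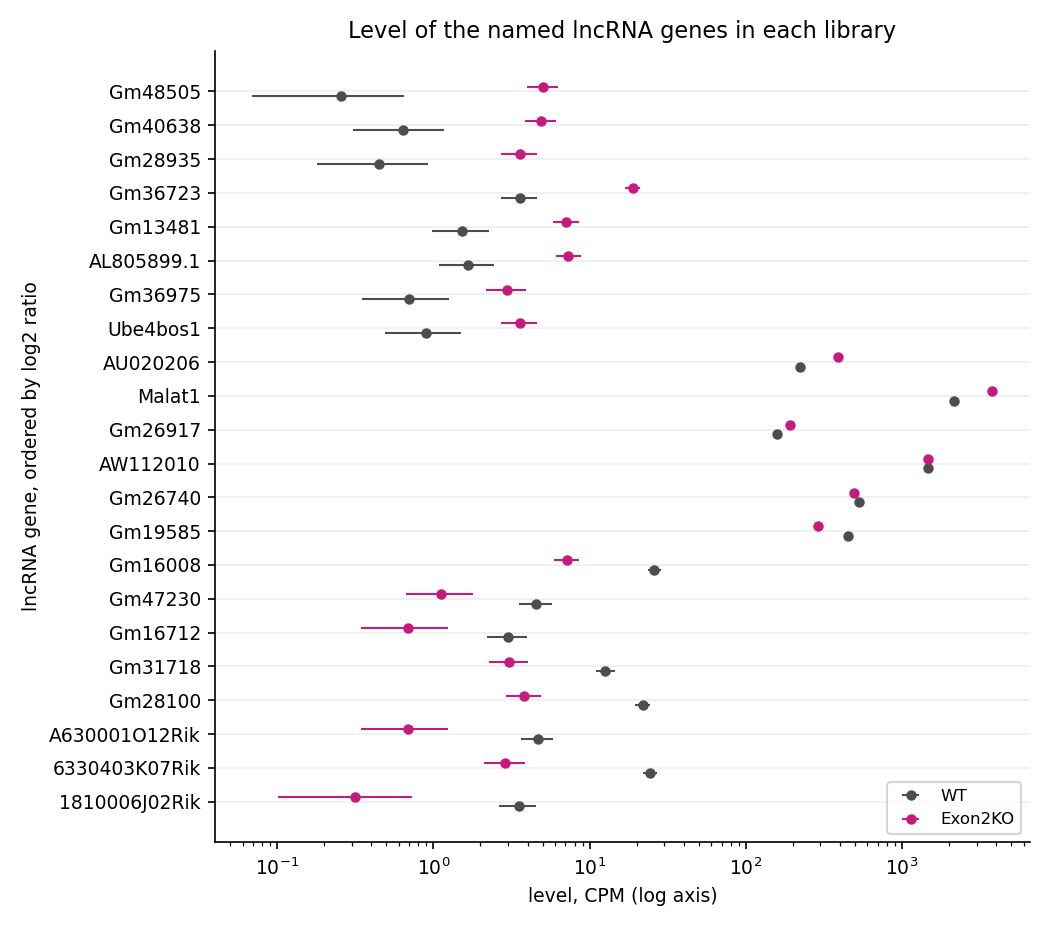
Scaled level in CPM (x axis, log scale) of the 6 members with the most reads and, among members with 50 or more reads, the 8 highest and 8 lowest log2 ratios, ordered by ratio from top to bottom. Grey points are WT, magenta points Exon2KO, and bars are exact 95% counting intervals of 1 library. The bars of the 2 libraries are apart at the top and the bottom and coincide at AW112010.

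The steepest falls among members with 50 or more reads were in lincRNA genes of little known function. 1810006J02Rik had 55 reads in WT and 5 in Exon2KO (-3.05, -5.16 to -2.18). 6330403K07Rik, whose promoter is printed above, had 382 and 46 (-3.03, -3.55 to -2.64), or 16.2 FPKM in WT and 1.94 in Exon2KO. It sits 4.57 kb from Mis12, a kinetochore gene with 336 and 324 reads (-0.08), so the lincRNA fell where the gene beside it stayed within 2-fold. On chromosome 8, Gm31718 (198 and 49 reads, -2.52 to -1.58) and A630001O12Rik (73 and 11, -3.82 to -1.83) overlap on opposite strands and both fell, while the nearest coding gene, Tomm20, had 2605 and 2187 reads (-0.28). A drop to 0 reads in Exon2KO was seen for 4 members. Of these 4833422C13Rik, antisense to Ssbp2, had 41 reads in WT and was at least 13.9-fold lower against a floor of 3 reads (32.4% of its exon bases are shared with coding exons), with the interval limit nearer 0 at -3.44. Gm43057 had 25 and was at least 8.49-fold lower, with that limit at -2.68.

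Among members with 50 or more reads the 6 steepest rises were likewise in little known lincRNA genes. Gm48505 had 4 reads in WT and 80 in Exon2KO (3.75, 2.88 to 6.21). Its nearest coding gene, the antiproliferative factor Btg1, was at 32585 and 32825 reads (-0.02). Gm36723, a gene of 20 exon blocks at chr12:25303940-25471979, had 56 and 302 reads (2.36, 1.99 to 2.84). It lies 206.8 kb from Id2, an inhibitor of E-protein transcription factors that had 45988 and 57384 reads (0.29). Gm40638 had 10 and 78 reads (2.71), Gm28935 7 and 57 (2.69), Gm13481 24 and 113 (2.12) and AL805899.1 26 and 117 (2.06). The antisense genes Gm36975, in Rabgap1l, and Ube4bos1, in Ube4b, completed the 8 highest, with 11 and 47 reads (1.89) and 14 and 57 (1.86), both with the whole interval past 2-fold. Steep ratios were also seen below 50 reads. Gm32369 had 2 and 46 reads, with the limit nearer 0 at 2.56, Gm15880, antisense inside Crtc3, had 2 and 34 (limit 2.10), and Gm33843, which overlaps Gm48505 on chromosome 10, had 1 and 27 (limit 2.13). The only member with 0 reads in WT, Gm36377, had 29 in Exon2KO and was at least 9.49-fold higher, with the limit nearer 0 at 2.86. In each of these genes the WT library held 56 reads or fewer.

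Some members past 2-fold lay next to each other. On chromosome 12, Gm48607 (23 and 51 reads), Gm36372 (10 and 38), Gm48606 (8 and 36) and Gm48605 (28 and 96) formed a run of 4, with log2 ratios of 1.06, 1.71, 1.90 and 1.68. Their bodies overlap in part, and the nearest coding gene, Lpin1, had 286 and 242 reads (-0.27). Nearest to Ets1, a transcription factor of T cells, Gm27162 (147.1 kb away) had 150 and 335 reads (1.12, 0.85 to 1.42) and Gm3331 had 3 and 17, with the limit nearer 0 at 0.69. Gm47680, the closest to Ets1 of the 3 at 6.66 kb, had 12 and 8 (-0.51, -2.11 to 0.80), and Ets1 had 13964 and 14870 (0.06).

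Genes near known regulators of T cells were described from a list of 112 coding genes. Of the members, 32 had a listed gene as their nearest coding gene, with 6 higher (18.8%), 7 lower (21.9%) and a median log2 ratio of -0.40. The shares were 12.3% and 11.5% over all members and 7.4% and 6.89% over all loci. In all 7 of the lower members the listed gene was also at least 2-fold lower. Beside the 6 higher members the listed gene stayed within 2-fold, with log2 ratios from 0.06 to 0.86 and every interval above 0. These were Bach2os, Gm36723, Gm27162 and Gm3331, given above, with Gm29675 and Gm26626. Gm29675 had 4 and 22 reads (1.98, 0.87 to 4.43), and Irf4, a transcription factor of effector Treg cells, had 773 and 1432 (0.86, 0.74 to 0.99). Gm26626, inside Runx1, had 3 and 17 with the limit nearer 0 at 0.69, and Runx1, a partner of Foxp3, had 2014 and 2550 (0.31). The list was written with earlier results of these data known. Gm28497, Gm29114, Gm43352 and Gm11802, all lower, held under 10 reads in Exon2KO and met the read minimum mostly through WT. Likewise Bach2os, Gm29675, Gm3331 and Gm26626, all higher, held under 10 reads in WT. Gm28497 and Gm29114 also have the same listed gene, Ikzf2. The shares and the shared direction are therefore a description only.

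Near Ikzf2, the gene of Helios, a Treg transcription factor with 8476 reads in WT and 440 in Exon2KO (-4.29, -4.44 to -4.16), both members fell. Gm29114, antisense across the 3′ part of the gene at chr1:69513932-69547707, had 28 reads and 1, with the limit nearer 0 at -2.24. Gm28497, 87.1 kb from the body of Ikzf2, had 22 and 0 and was at least 7.47-fold lower, with the limit nearer 0 at -2.48. Gm29114 shares 5.74% of its exon bases with coding exons and Gm28497 none.

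Gm16008 runs antisense to Tnfrsf18, the gene of the costimulatory receptor GITR, at chr4:156022008-156031643. It had 407 reads in WT and 114 in Exon2KO (-1.84, -2.18 to -1.56), and Tnfrsf18 had 34363 and 11626 (-1.59, -1.62 to -1.56). Coding exons cover 31.3% of its exon bases, and reads of the 2 genes cannot be told apart there. The next coding gene, Tnfrsf4 (OX40, a related receptor), was also lower (66016 and 25936 reads, -1.37).

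The other lower members of the list followed the same way. Gm47230 (71 and 18 reads, -1.89, -2.84 to -1.24) lies 17.7 kb from Cxcr5, the chemokine receptor of follicular T cells (230 and 48, -2.24), and shares no exon bases with coding exons. Gm11802 (23 and 7, -1.50) overlaps the transcription factor gene Tox (3005 and 1166, -1.39) and shares 39.8% of its exon bases. Gm43352 (20 and 0, at least 6.79-fold lower, limit nearer 0 at -2.33) overlaps Lef1, a transcription factor of naive T cells (498 and 108, -2.21), and shares 39.4%. 1700061F12Rik (325 and 150, -1.13, -1.43 to -0.86) has Gata3, a regulator of tissue Treg cells, as its nearest coding gene (5347 and 954, -2.51), at a distance of 659.6 kb.

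The listed gene was at least 2-fold lower for 9 of the 32 members, and in 7 of these the lncRNA was too. The exceptions were Pvt1 beside Myc, given above, and Gm9889, 78 bases from S1pr1, the receptor that guides lymphocytes out of tissue. Gm9889 had 29 and 21 reads (-0.46, -1.38 to 0.37), and S1pr1 had 1364 and 462 (-1.58). Several listed neighbourhoods stayed within 2-fold in both genes. Gm48236, a lincRNA that overlaps the aryl hydrocarbon receptor gene Ahr on the opposite strand, had 408 and 573 reads (0.46, 0.28 to 0.65) beside 329 and 467 for Ahr (0.48), and shares 15.5% of its exon bases with coding exons. Gm19585 and Satb1, which organises chromatin in T cells, had log2 ratios of -0.64 and -0.55. Gm31812, near Stat4, had 153 and 187 reads (0.26, -0.05 to 0.58) beside 4385 and 3809 for Stat4 (-0.23). AC154408.2 near Tigit, an inhibitory receptor, had 116 and 117 reads (-0.01), and Gm11579 near the costimulatory receptor gene Cd28 had 100 and 93 (-0.13). For the latter pair of lncRNAs the intervals spanned 0. Near Tnfaip3, which restrains NF-kB signalling (-0.51), 1700124M09Rik had 26 and 42 reads (0.63), Gm48545 had 39 and 22 (-0.80) and Gm20139 had 7 and 14 (0.81). Near Id2, Gm47705 had 65 and 64 reads (-0.05) and Gm36287 had 12 and 10 (-0.24). Gm15511, which overlaps Rora (-0.88), had 44 and 26 reads (-0.74), and D630008O14Rik, which overlaps the survival gene Bcl2 (-0.72), had 14 and 9 (-0.56). 2310016D23Rik near Cd28 had 33 and 25 reads (-0.40), Junos at Jun had 20 and 15 (-0.40), and Gm47861 near Cd69 had 16 and 15 (-0.11). Of these 10 genes, Gm48545 and Gm15511 had intervals clear of 0.

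Outside the list, other members fell or rose beside their coding neighbour. Gm28100, at chr1:85972365-85986917, had 343 reads in WT and 61 in Exon2KO (-2.48, -2.94 to -2.12), and Gpr55, a lipid receptor 11.4 kb away, had 1403 and 372 (-1.94). Gm16712 (47 and 11, -1.94, -3.22 to -1.15) overlaps Ebi3, a subunit of the cytokines IL-27 and IL-35 (944 and 191, -2.32), and shares 26.4% of its exon bases with coding exons. C230024C17Rik (41 and 7, -2.28) lies 2.52 kb from Rgs16, a regulator of G protein signalling (809 and 239, -1.78). Gm13571 (21 and 2, limit nearer 0 at -1.39) overlaps the endocytic receptor gene Ly75 (931 and 128, -2.87), and Gm34643 (27 and 4, -2.29) lies near Acod1, the itaconate enzyme (3478 and 96, -5.18). In the upward direction Gm12171 (64 and 200, 1.59, 1.20 to 2.05) lies beside Gm12169 (570 and 2149, 1.88), and Gm15345 (10 and 35, 1.60) overlaps March3 (687 and 1608, 1.20).

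Gm44851 had the most reads of the members past 2-fold upward. It is antisense across the start of Furin, a protease that activates TGF-beta, at chr7:80404269-80406577, and had 843 reads in WT and 2208 in Exon2KO (1.36, 1.25 to 1.48). Furin had 2633 and 4710 reads (0.81, 0.74 to 0.88), and the next gene, the kinase gene Fes, had a log2 ratio of 1.51. Gm44851 shares 5.11% of its exon bases with coding exons. Gm26809, the member past 2-fold downward with the most reads, had 998 and 500 reads (-1.02, -1.18 to -0.87) beside Lsm8 at 2250 and 2579 (0.17).

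**Figure D4:**
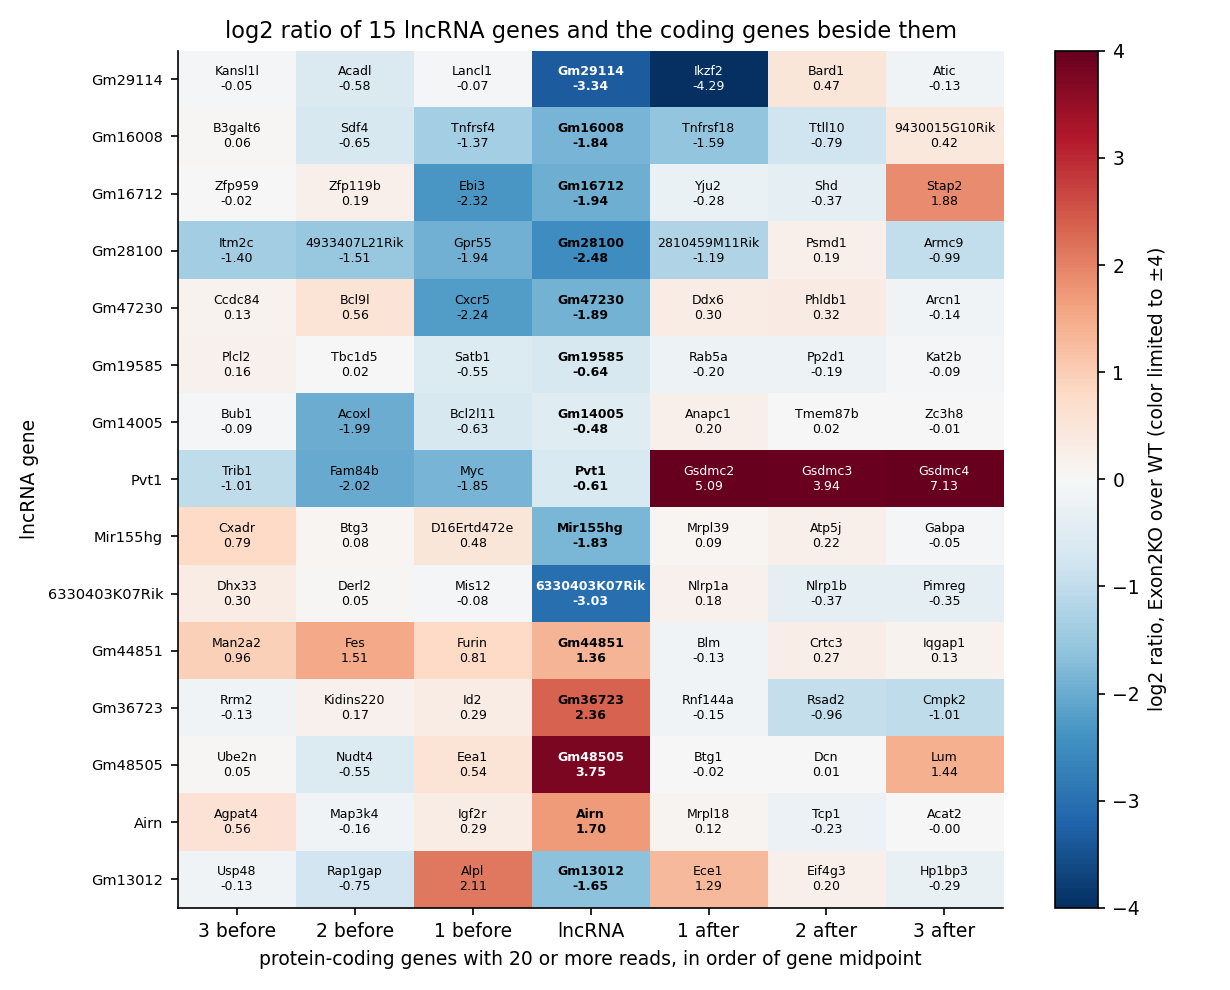
Each row is 1 lncRNA gene (centre, bold) with the 3 protein-coding genes before and the 3 after it that have 20 or more reads, in order of gene midpoint (x axis), and the color and number in a cell are the log2 ratio of Exon2KO over WT. Blue blocks around Gm28100 and Gm16008 extend over more than 1 coding gene. In the Pvt1 row the 3 coding genes before Pvt1 are lower (-1.01, -2.02 and -1.85) and the 3 Gsdmc genes after it higher (5.09, 3.94 and 7.13). 6330403K07Rik, Mir155hg and Airn have no coding gene past 2-fold in their row. Cells show order and not distance: midpoints lie from -2555 to 1694 kb around Pvt1 and as far as -6379 kb from Mir155hg.

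Over all members, 666 had a nearest coding gene with 20 or more reads and 84 did not. The log2 ratios of the 666 pairs had a Spearman correlation of 0.261 and a Pearson correlation of 0.350. The points share both libraries, and 107 members shared their nearest coding gene with another member. Protein-coding genes paired with their own nearest coding gene gave a Spearman value of 0.148 over 8509 pairs from the same libraries. The value was 0.287 for the 395 pairs with overlapping bodies, 0.114 for the 150 pairs apart by up to 10 kb and 0.351 for the 121 pairs farther apart, so it did not fall off with distance in order. For the 388 pairs whose lncRNA shares no exon bases with coding exons it was 0.263. In sparse counts such weak values are a description of these pairs only.

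Most members past 2-fold had a neighbour that was not. Of 154 such pairs, 129 had a neighbour within 2-fold, 24 a neighbour past 2-fold in the same direction and 1 in the opposite direction. Of the 78 lower members, 17 (21.8%) had a neighbour at least 2-fold lower, compared with 20 (3.91%) of the 512 members within 2-fold. Of the 76 higher members, 7 (9.21%) had a neighbour at least 2-fold higher, compared with 14 (2.73%) of the 512. For members that share no exon bases with coding exons these were 8 of 45 (17.8%) lower and 5 of 52 (9.62%) higher. Their members within 2-fold gave 4.12% and 2.75%. Coding genes with a coding neighbour gave 15.1% for lower and 14.6% for higher genes, compared with 4.08% and 4.48% for coding genes within 2-fold. The opposite pair was Gm13012, with 201 and 64 reads (-1.65, -2.11 to -1.26), inside Ece1, the endothelin-converting enzyme gene, with 1226 and 3060 (1.29, 1.20 to 1.39).

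**Figure D5:**
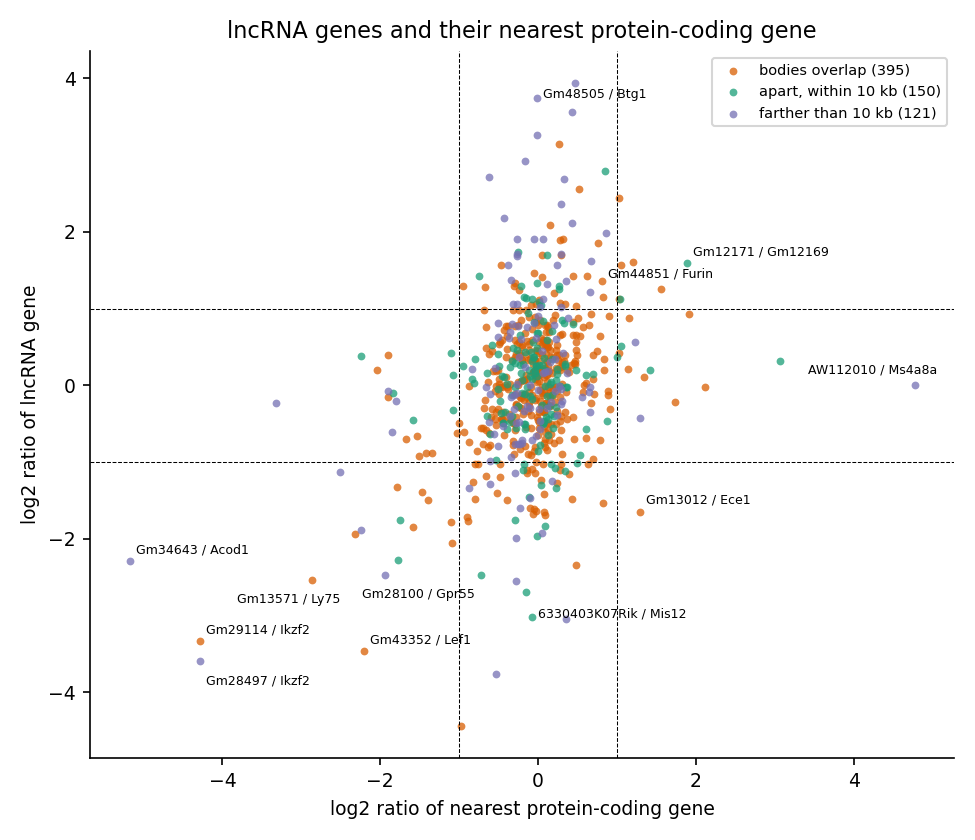
The log2 ratio (Exon2KO over WT) of each lncRNA gene (y axis) against that of its nearest protein-coding gene (x axis), for 666 pairs colored by distance, with dashed lines at 2-fold. The lower left corner holds the 17 pairs with both genes lower, with the Ikzf2 and Acod1 pairs farthest out, and above and below the dashed horizontal lines, between the vertical ones, are the 129 pairs in which the lncRNA alone passed 2-fold.

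In the genome, 556 members overlapped the body of another gene and 194 overlapped none. Exon bases were shared with coding exons by 311 members, of which 249 were antisense and 62 lincRNA, and 23 shared at least 50% of theirs. The median member had 3 exon blocks and 1642 exon bases, and 114 had a single block. Over the 19 autosomes the members' median log2 ratio ranged from -0.41 on chromosome 14 to 0.34 on chromosome 7.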

How the data were processed

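The data are gene-level RNA-seq values of colonic Treg cells, 1 library per genotype. Whole-number read counts per gene were deposited by the authors for 55246 loci, with biotypes and coordinates per the file headers. The submitters' processing notes name HISAT2 2.0.5, StringTie 1.3.3b, featureCounts 1.5.0-p3, DESeq2 1.16.1 and build mm10, without saying which step used which. The use of strand and the annotation release are not given in the sources used here. The authors also deposited FPKM values, a scaled count signal that was not used, a log2 fold change, and a p-value with its adjusted p-value for their own comparison; the method behind the last is not given in the sources used here. FPKM were used as deposited to compare levels between genes.

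Counts were scaled with TMM factors over all loci (0.964 for WT and 1.04 for Exon2KO; edgeR 4.0.16, R 4.3.3). CPM are reads per 1e6 of the scaled totals. A prior count of 2 was added to form each log2 ratio (Exon2KO over WT), but not its interval, which is the exact (Clopper-Pearson) 95% interval of the Exon2KO share of a gene's reads rewritten as a ratio. With 1 library per genotype edgeR's test has no spread to estimate, so no p-value was computed, and a call is a ratio past 2-fold, with or without its whole interval. Without molecular identifiers, reads may be copies of 1 molecule, so intervals cover counting error only. Where 1 library had 0 reads, the fold is a bound against 3 reads, which takes the reads of the other library as given, without their counting error; with 1 to 3 reads the interval limit nearer 0 is given. Of the members, 749 are in GENCODE M21 (GRCm38) and 740 have identical coordinates there. Exon overlap was taken from M21 and the nearest coding gene from the deposited gene bodies. Sequences are from RefSeq (GRCm38.p6). Python 3.11.15 with numpy 2.4.6, pandas 2.3.3 and scipy 1.17.1 was used, and the calculation was tested on simulated data.

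The members and the lists (miRNA hosts, snoRNA hosts, nuclear body RNAs, imprinted RNAs, immune lncRNAs, T cell neighbours and the cell type markers) were chosen with earlier results of these data known. Genes were named by rule: among members with 50 or more reads the 8 highest and 8 lowest log2 ratios, the 6 members with the most reads, all members of the RNA lists, and members next to a gene of the T cell neighbours. A further 31 members (among them Gm44851, Miat, Gm26809, Gm13012, Gm12171 and those in runs or at 0 reads) were named after their values were seen. Alternatives covered library scaling, the read minimum, the prior count, the fold threshold, overlap with other genes and the choice of neighbour.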

Additional observations from a re-analysis of the deposited data

How the results depend on the processing

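No paired analysis was possible because each genotype had 1 library and the labels give no replicate numbers; for the same reason no library could be left out. The counts of members past 2-fold stayed within 1.5 times under every scaling and prior count tried, and those with the whole interval past 2-fold under every scaling (the interval does not use the prior count). They moved with the rule itself. A minimum of 10 reads gave 166 higher and 142 lower, with 39 lower by the interval; 50 reads gave 39 and 35, with 13 and 12 by the interval; no minimum gave 380 and 441, with 45 lower by the interval. A threshold of 1.5-fold gave 171 higher and 153 lower (57 and 45 by the interval), and 4-fold gave 20 and 16 (6 and 8). The 194 members that overlap no other gene body held 26 higher and 22 lower (7 and 7 by the interval). In an alternative chosen after seeing the data, the 438 members that share no exon bases with coding exons held 63 higher and 49 lower (22 and 15 by the interval). By construction these counts follow how many members enter and where the threshold lies. Scaling by total counts moved the median of all loci to 0.10 and that of the members to 0.14 (log2), and 58.6% of members past 2-fold were then higher, against 51.7%. The correlation with the nearest coding gene ranged from 0.193 to 0.286 over all alternatives. Of the 97 named genes, Gm26809 was no longer past 2-fold under total counts, nor were CT030636.1 and Gm48607 with a prior count of 5; only AW112010, AC154408.2, Gm47705 and Gm28875, all near 0, changed sign with the scaling. Depth limits what can be seen: at a median of 54 reads, 36.7% of members had an interval clear of 0, against 50.4% of all loci.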

Other observations

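Non-coding genes of other biotypes on autosomes, which are outside the lincRNA and antisense classes, were counted in the same way, beside 7.4% higher, 6.89% lower and a median of -0.00 over all loci. Of 443 genes annotated as TEC (a class awaiting experimental evidence), 82 (18.5%) were at least 2-fold higher in Exon2KO and 32 (7.22%) lower, with a median log2 ratio of 0.34. Sense-intronic genes, which lie within introns on the strand of the host, were 13 higher (21%) and 2 lower (3.23%) of 62, with the same median of 0.34. Processed transcripts were 16 higher and 9 lower of 185 (median 0.12), and genes at bidirectional promoters 3 higher and 3 lower of 55 (median -0.02). The deposited counts do not separate unspliced host RNA from RNA of a sense-intronic gene.

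Around Ikzf2 the same direction was seen in 3 further non-coding genes. The sense-intronic Gm29112 had 324 reads in WT and 14 in Exon2KO (log2 ratio -4.37, 95% counting interval -5.45 to -3.79), and Gm28112 had 141 and 10 (-3.60, -4.94 to -2.92). The TEC gene Gm37930 had 42 and 0. Dleu2, the host of miR-15a and miR-16-1, which is annotated as a processed transcript, had 175 and 441 reads (1.297, 1.05 to 1.57). Among snoRNA hosts of other biotypes, Gas5 had 5905 and 6869 reads (0.19), Snhg15 2862 and 2473 (-0.24) and Snhg5 2769 and 2432 (-0.21). A130023I24Rik, which is not on the list of snoRNA hosts, had 84 and 326 reads (1.90, 1.58 to 2.29). On the X chromosome, Flicr, an antisense RNA beside Foxp3 that is known to modify Foxp3 expression in cis, had 426 and 573 reads (0.40, 0.22 to 0.59), while Foxp3 itself had 6991 and 20946 (1.56).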
